A study of Mus musculus with 3 samples.

Results

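Acta2, Tagln, Myh11, Cnn1, Myl9, Des, Mylk and Tpm2 were followed as the contractile genes of mural cells, the cells that wrap blood vessels. The rule was a list of names with no threshold on a value, and they are 8 of the 32285 genes in the count tables. A further 52 genes of the same machinery were read as wider lists. The libraries came from retinas of C57BL/6JRj mice, called young at 3, adult at 12 and old at 23 months, with no treatment or allele named in the labels. Each age was 1 library, made from the pooled retinas of 2 mice and enriched for CD31, an endothelial surface protein, so the mural cells described here are those still present after a selection for endothelium. Droplet sequencing of transcript 3′ ends (10x Genomics) counted unique molecular identifiers (UMIs), 1 for each captured transcript.

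Mural cells are of 2 main kinds. Smooth muscle cells circle arteries and arterioles and set vessel diameter, while pericytes sit along capillaries. In smooth muscle cells, a calcium signal switches on myosin light chain kinase, the phosphorylated light chain lets myosin pull on actin filaments, and tropomyosin, calponin and transgelin lie along those filaments. Many of these genes are known targets of serum response factor, which binds a DNA element called the CArG box together with myocardin. Acta2 is the gene most often used to tell arteriolar smooth muscle from capillary pericytes in the retina.

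Cells kept after limits on genes and mitochondrial UMIs and doublet calling numbered 1701 to 1957 per library, with a median of 5964 to 6353 UMIs, and 4 barcodes were seen in more than 1 library. Clusters were named from fixed markers with the 8 genes and the wider lists kept out of the clustering features. The smooth muscle class met 9 of 9 smooth muscle markers and 4 of 10 pericyte markers, and held 38, 35 and 37 cells in the young, adult and old library. The pericyte class met 10 of 10 pericyte markers and 2 of 9 smooth muscle markers, and held 170, 132 and 104 cells. Droplets with endothelial and pericyte markers numbered 243, 189 and 188, droplets with endothelial, pericyte and smooth muscle markers 67, 61 and 37, and endothelial cells 442, 433 and 406. The mixed droplets were deeper, with a median of 13418 to 16932 UMIs against 3972 to 4644.5 in pericytes, and doublet calling marked only 8, 17 and 12 cells of all types, so it did not remove them. Levels are UMIs summed over a class and scaled to all UMIs of that class (CPM), with exact 95% Poisson intervals. They are counts of transcripts and are not divided by gene length. With 1 library per age there was no replicate and no test was made, and the intervals hold counting error alone. They leave out how far mice or preparations vary.

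Promoters are shown for Acta2, which was high in smooth muscle cells and without a UMI in most pericytes, and for Myl9, which nearly all pericytes carried. RefSeq windows from 250 bases before to 50 after the start were found for 6 of the 8 genes, all but Tagln and Myh11. Both are on build GRCm38.p6, Acta2 at chr19:34255324-34255623 on the minus strand and Myl9 at chr2:156775214-156775513 on the plus strand. Capitals mark a CArG box, or a CArG box with 1 C or G in its 6-base A/T core.

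Acta2: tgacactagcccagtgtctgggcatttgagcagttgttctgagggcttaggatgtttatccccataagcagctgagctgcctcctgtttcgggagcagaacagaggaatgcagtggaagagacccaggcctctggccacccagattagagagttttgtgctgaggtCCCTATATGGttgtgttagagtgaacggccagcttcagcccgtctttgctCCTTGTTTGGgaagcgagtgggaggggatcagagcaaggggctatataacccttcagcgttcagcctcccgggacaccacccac

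Myl9: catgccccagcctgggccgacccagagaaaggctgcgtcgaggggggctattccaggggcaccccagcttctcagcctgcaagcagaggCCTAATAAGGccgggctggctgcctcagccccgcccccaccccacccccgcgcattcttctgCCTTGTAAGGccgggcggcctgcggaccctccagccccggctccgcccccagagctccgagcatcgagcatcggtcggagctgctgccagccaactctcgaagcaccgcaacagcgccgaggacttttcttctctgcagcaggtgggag

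In the Acta2 window the capitals mark 2 boxes with 1 C or G in the core, whose first bases lie 84 and 34 bases before the start. The Myl9 window held the only strict CArG box among the 6 windows, 161 bases before the start, and a box with 1 C or G in the core at 99 bases. Of all 32851 promoter windows of 300 bases, 1.63% held a strict CArG box and 8.50% one with 1 C or G in the core. The motif TATAAA, searched on both strands, was in none of the 6 windows and in 13.6% of all windows. The Des, Tpm2, Cnn1 and Mylk windows held no match to any of these, which says only that these letters are not in these 300 bases. The Mylk window, at chr16:34784700-34784999, lies inside the gene, whose first base is 34745210. It belongs to an internal start, so the first start of Mylk was not read.

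Thick and thin filament genes of smooth muscle, Acta2, Tagln, Myh11 and Cnn1, were at their highest in the smooth muscle class of every library. Acta2, the smooth muscle actin gene (chr19:34241090-34255590, minus strand of GRCm38), was at 9841 CPM (9493 to 10198) in the young, 11950 CPM (11561 to 12349) in the adult and 12707 CPM (12341 to 13081) in the old smooth muscle class. In pericytes it was at 452 CPM (404 to 505), 1104 CPM (1018 to 1194) and 812 CPM (735 to 895). Smooth muscle cells thus held 21.8-fold (19.4 to 24.5), 10.8-fold (9.94 to 11.8) and 15.6-fold (14.1 to 17.4) the pericyte level of Acta2. Against the pericytes with fewer than 5 smooth muscle markers alone, a division chosen after seeing the data, the folds were 92.6 (72.2 to 121), 189 (128 to 292) and 133 (94.4 to 193). Every smooth muscle cell of all 3 libraries had an Acta2 UMI. These are differences between clusters of the same cells and are given as a description.

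Tagln, which encodes the actin cross-linking protein transgelin (chr9:45929619-45936058, minus strand), had the same order. Its smooth muscle level was 7383 CPM in the young, 10259 CPM in the adult and 10571 CPM in the old library, against 227, 825 and 400 CPM in pericytes. Smooth muscle cells were 32.5-fold (27.6 to 38.4), 12.4-fold (11.3 to 13.7) and 26.4-fold (22.9 to 30.6) above pericytes. Myh11, the smooth muscle myosin heavy chain (chr16:14194535-14291372, minus strand), was at 3830, 3264 and 3392 CPM in smooth muscle cells and at 203, 487 and 356 CPM in pericytes. The fold was 18.9 (15.8 to 22.6), 6.70 (5.86 to 7.69) and 9.52 (8.13 to 11.2).

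Cnn1, the gene of smooth muscle calponin (chr9:22099216-22109630, plus strand), was sparse even in smooth muscle cells. It gave 7, 8 and 25 UMIs in the young, adult and old smooth muscle class, or 22.8 CPM (9.15 to 46.9), 26.8 CPM (11.6 to 52.9) and 69.6 CPM (45.1 to 103). Only 10.5%, 11.4% and 21.6% of smooth muscle cells had a Cnn1 UMI, and after each cell was thinned to 2000 UMIs the shares were 5.26%, 2.86% and 5.41%. The 3 cells with the most Cnn1 held 85.7%, 87.5% and 68.0% of its UMIs. All Cnn1 UMIs of the 3 libraries lay in the smooth muscle class. For the count of 0 in pericytes the exact upper limits were 5.28, 6.56 and 7.34 CPM. Set at a level of 3 UMIs per library instead, pericytes would be at 4.29, 5.33 and 5.97 CPM. Smooth muscle cells were 5.30-fold, 5.03-fold and 11.7-fold above that set level. With the counting error of both classes included, the exact lower limits of the ratio were 3.28, 3.22 and 8.80.

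Myl9, Mylk, Tpm2 and Des were shared by both mural classes. Myl9, a regulatory light chain that the kinase phosphorylates (chr2:156775420-156781658, plus strand), was at 4688, 5304 and 5427 CPM in smooth muscle cells and 1668, 1962 and 2293 CPM in pericytes. The smooth muscle level was 2.81-fold (2.60 to 3.04), 2.70-fold (2.50 to 2.92) and 2.37-fold (2.20 to 2.55) the pericyte level. From 93.2% to 95.2% of pericytes had a Myl9 UMI, against 0 to 4.22% of rods, which should lack it. Rods were shallower, at a median of 2144 to 2423 UMIs, and after thinning to 2000 UMIs the shares were 92.1% to 96.6% in pericytes and 0 to 2.82% in rods.

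Mylk, the light chain kinase gene (chr16:34745210-35002420, plus strand), was at 2032, 2130 and 1952 CPM in smooth muscle cells and 488, 583 and 500 CPM in pericytes. The ratio was 4.17 (3.64 to 4.77), 3.65 (3.19 to 4.19) and 3.91 (3.38 to 4.53), and the intervals of the 3 libraries overlap. Counts of 3′ ends cannot separate the long and short kinase and the kinase-free protein telokin, which the same gene makes. Tpm2, the beta tropomyosin gene (chr4:43514711-43523765, minus strand), was at 3267, 4361 and 4773 CPM in smooth muscle cells and 402, 629 and 464 CPM in pericytes, a ratio of 8.13 (7.11 to 9.31), 6.93 (6.16 to 7.82) and 10.3 (8.97 to 11.9). Tpm2 shared 7 of the 988 words of 31 bases in its last 400 transcript bases with Tpm1, and the other 7 genes shared none with any gene. Tagln, Des and Mylk overlap genes on the opposite strand. The strand setting of the counting is not given in the sources used here, and whether reads of such pairs were kept apart was not tested.

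Des, which encodes the intermediate filament protein desmin (chr1:75360329-75368579, plus strand), had the smallest difference between the mural classes of the 8 genes, and in the young library its levels overlapped. Smooth muscle cells were at 263 CPM (209 to 327) in the young, 540 CPM (460 to 630) in adult and 479 CPM (410 to 556) in old retinas. Pericytes were at 293 CPM (255 to 336), 316 CPM (272 to 366) and 342 CPM (293 to 398). In the young library the interval of the ratio of smooth muscle to pericytes spanned 1, at 0.90 (0.69 to 1.17), and in the adult and old libraries the ratio was 1.71 (1.37 to 2.13) and 1.40 (1.13 to 1.74).

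**Figure D1:**
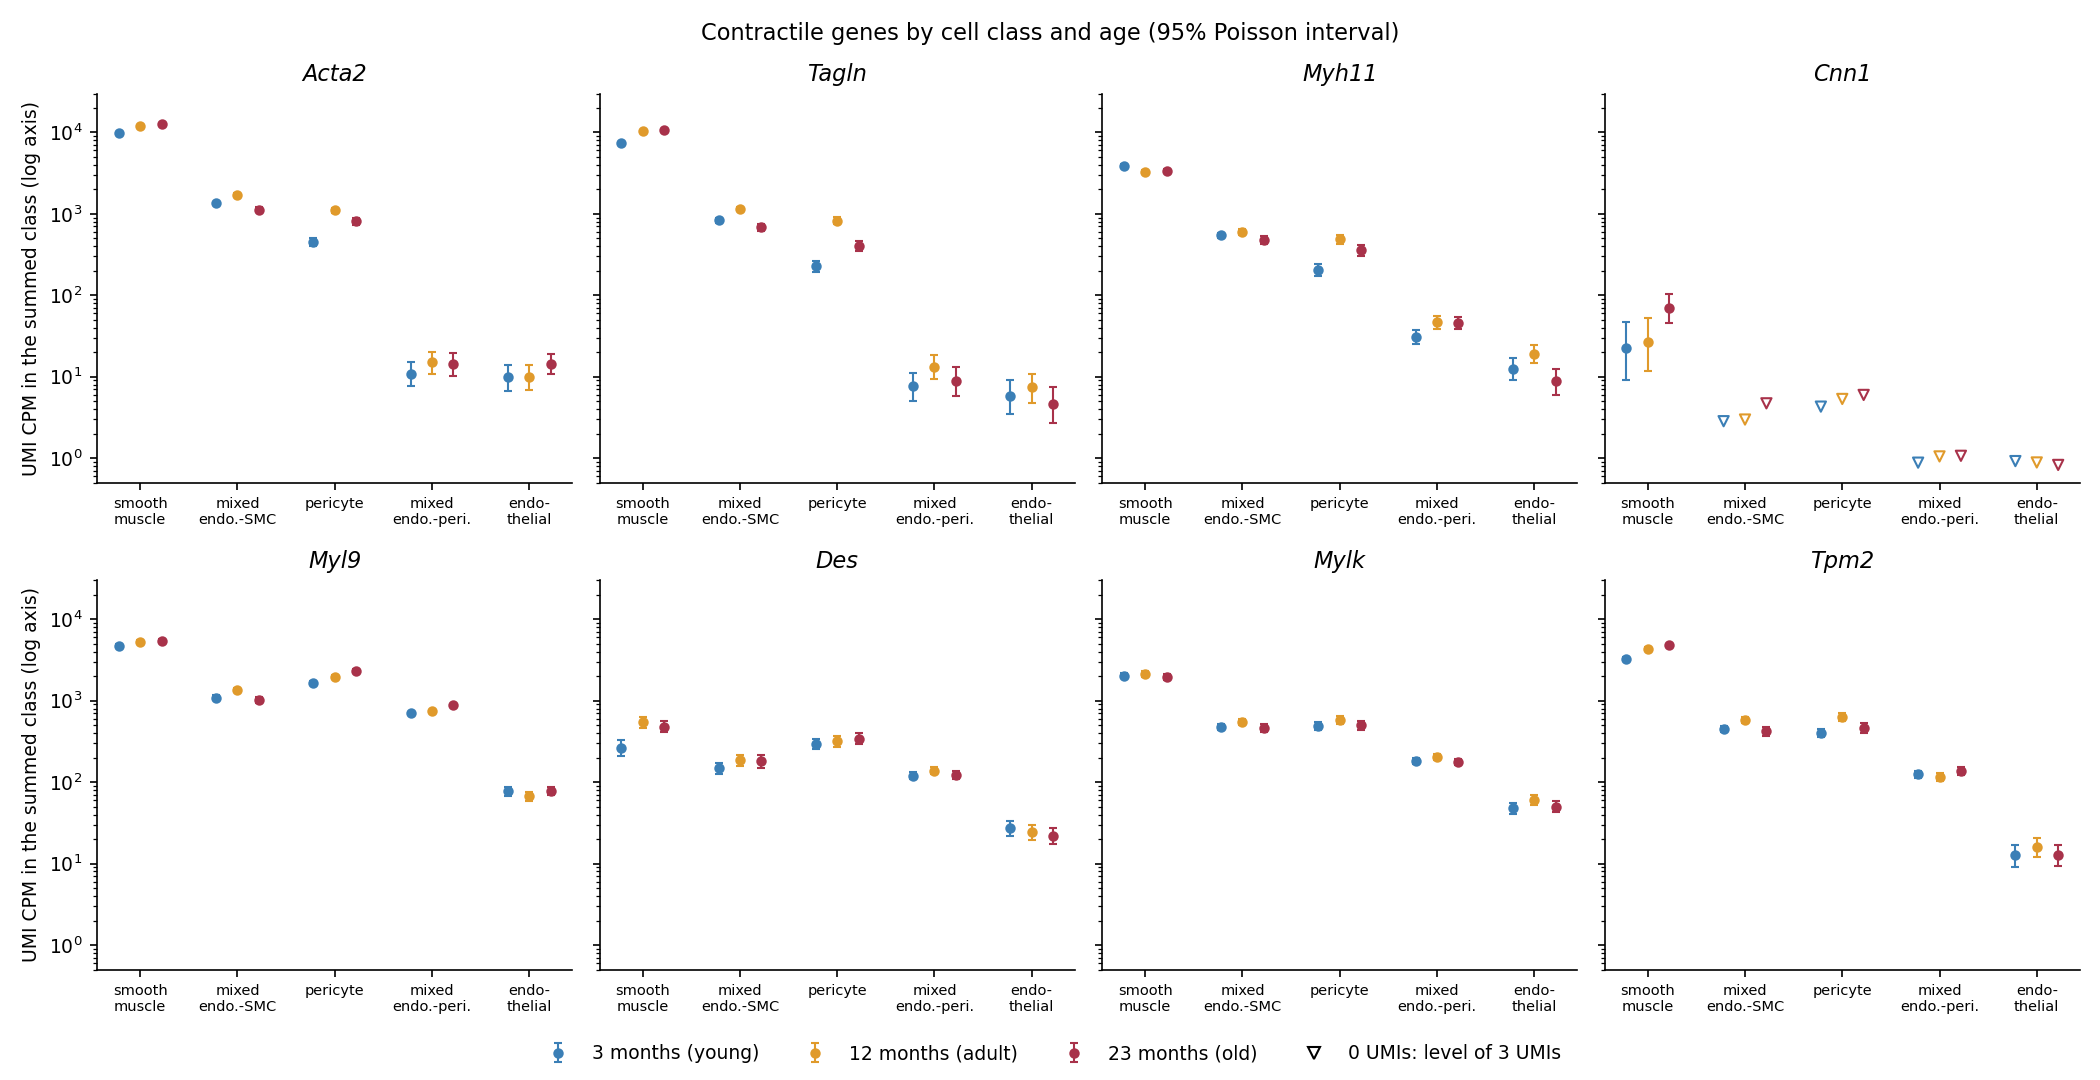
Level of each of the 8 genes (UMI CPM, log axis) in 5 classes, with 1 point per library coloured by age and 95% Poisson intervals. Open triangles mark 0 UMIs and are drawn at the level of 3 UMIs. Acta2 and Tagln span 3 orders from smooth muscle to endothelial cells, while Des in pericytes, at 293 to 342 CPM, lies beside smooth muscle at 263 to 540 CPM.

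Across all 5 classes, smooth muscle cells came first for every gene and library except Des in the young library, where pericytes came first and the 2 intervals overlapped. Endothelial cells came last in every case with UMIs except Acta2 in the old library, where they overlapped with mixed endothelial-pericyte droplets. Acta2, Tagln and Myh11 were higher in mixed endothelial-smooth muscle droplets than in pericytes in all 3 libraries. Myl9 had the reverse order in all 3, and the 2 classes overlapped for Mylk and Tpm2.

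The mixed endothelial-pericyte droplets were set beside pericytes, since both met all 10 pericyte markers. Of the 4 genes that pericytes share with smooth muscle, Myl9, Des and Mylk were lower in the mixed droplets by factors of 2.30 to 2.88, and Tpm2 by more. Pericytes were 2.36-fold (2.20 to 2.54), 2.64-fold (2.45 to 2.84) and 2.59-fold (2.41 to 2.78) above them for Myl9 in the young, adult and old library, 2.43-fold, 2.30-fold and 2.78-fold for Des, 2.66-fold, 2.88-fold and 2.80-fold for Mylk, and 3.23-fold, 5.38-fold (4.62 to 6.27) and 3.37-fold for Tpm2. The summed pericyte markers were at 36765, 33724 and 35845 CPM in pericytes and at 15306, 16304 and 15811 CPM in the mixed droplets. For Acta2 the factors were 41.6 (29.6 to 60.2), 73.3 (53.8 to 102) and 57.0 (41.1 to 81.0), and for Tagln 29.8, 62.0 and 44.9. With only the pericytes under 5 smooth muscle markers the factors were 9.78 (6.42 to 15.1), 4.21 (2.46 to 7.05) and 6.72 (4.11 to 10.9) for Acta2 and 8.40, 6.48 and 6.51 for Tagln. Acta2 in the mixed endothelial-pericyte droplets was at 10.9, 15.1 and 14.2 CPM, which overlapped with endothelial cells at 9.82, 10.0 and 14.3 CPM.

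Acta2 was unevenly spread over pericytes. Of 406 pericytes, 310 (76.4%) had no Acta2 UMI and 66 had 5 or more, and those 66 cells held 95.5% of all pericyte Acta2. The single highest pericyte had 59 Acta2 UMIs. Tagln was spread in the same way, with 43 cells of 5 or more UMIs holding 88.3% of it. By contrast only 23 of 406 pericytes (5.67%) lacked Myl9.

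The share of pericytes with an Acta2 UMI was 16.5% (11.2 to 22.9), 28.8% (21.2 to 37.3) and 28.8% (20.4 to 38.6) in order of age. After thinning to 2000 UMIs, which left out 18, 22 and 17 shallower pericytes, it was 12.5%, 28.2% and 27.6%. Rods gave 1.81%, 0.623% and 0.844% before and 1.90%, 0.463% and 0.704% after thinning, so the pericyte shares were above those of rods. How much Acta2 a pericyte droplet takes up as free RNA was not tested.

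Pericytes were then divided by how many of the 9 smooth muscle markers gave a UMI, none of which is among the 8 genes. Not all 9 were higher in smooth muscle cells, since Casq2 was at 757, 777 and 760 CPM in pericytes against 218, 252 and 159 CPM in smooth muscle cells, and Rgs4 at 581, 530 and 579 against 514, 728 and 568 CPM. A division at 5 markers was chosen after the data had been seen. It put 20 of 170 young (11.8%), 31 of 132 adult (23.5%) and 24 of 104 old pericytes (23.1%) in the upper part. These 75 cells were at 2384 CPM (2099 to 2697), 3545 CPM (3266 to 3841) and 2380 CPM (2146 to 2634) for Acta2, and held 80.1%, 96.0% and 91.9% of the pericyte Acta2. The other pericytes were at 106 CPM (81.7 to 136), 63.4 CPM (41.0 to 93.5) and 95.7 CPM (65.9 to 134). The cells in the upper part were also deeper, with a median of 5482.5, 5503 and 6337 UMIs against 3854.5, 3670 and 4124.5.

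Des, Myl9, Mylk and Tpm2 differed less across this division than Acta2. Des was at 320, 416 and 375 CPM in the pericytes with 5 or more smooth muscle markers and at 288, 274 and 328 CPM in the rest. Myl9 was at 2243, 2700 and 2622 CPM against 1565, 1647 and 2143 CPM, and Mylk at 735, 839 and 692 CPM against 444, 474 and 412 CPM. Tpm2 differed the most of these, at 763, 1255 and 819 CPM against 337, 362 and 302 CPM. Myh11 took a middle place, at 726, 1100 and 793 CPM against 110, 226 and 157 CPM. Cnn1 had 0 UMIs in both parts. Whether the 75 cells were a kind of pericyte, smooth muscle cells placed in the pericyte cluster or droplets with both was not tested.

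**Figure D2:**
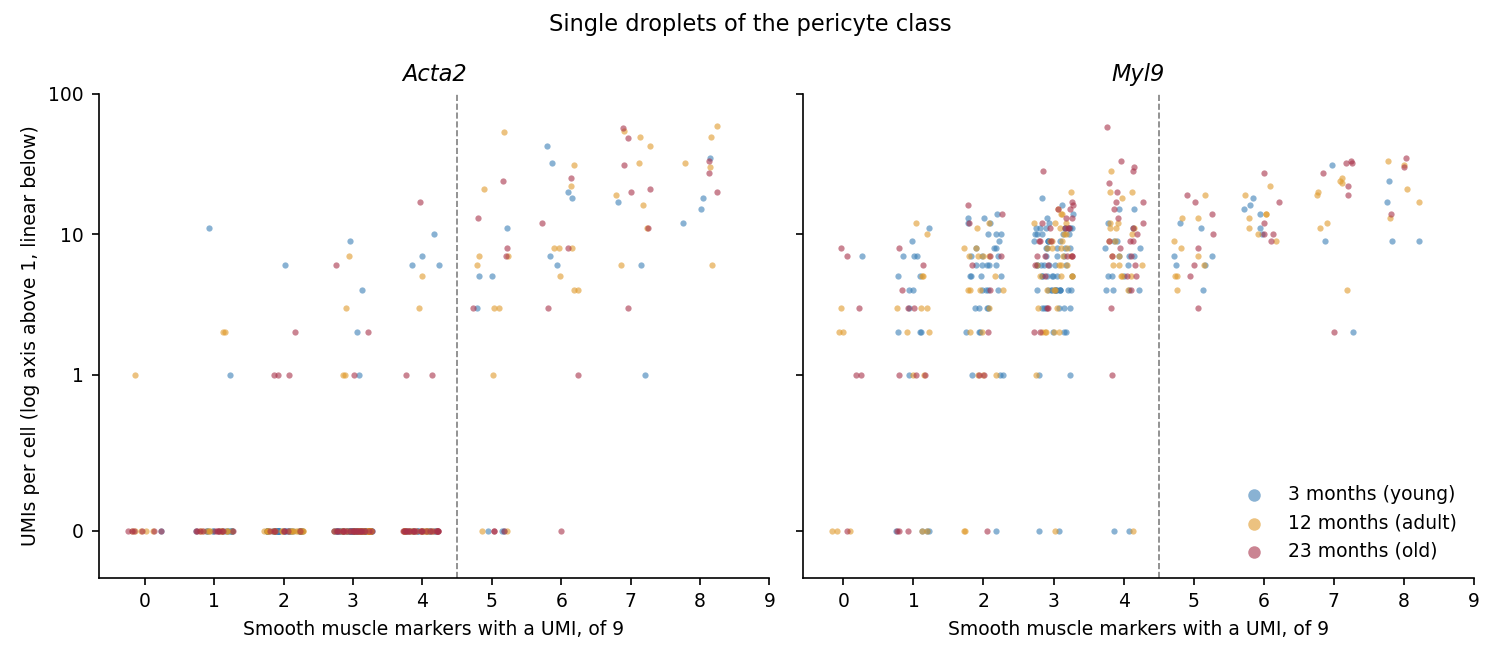
UMIs of Acta2 and Myl9 in each of the 406 pericytes (log axis above 1, linear below) against how many of 9 smooth muscle markers the cell held, coloured by age. Acta2 was at 0 in 310 cells, mostly left of the dashed line at 5 markers, while Myl9 was at 0 in only 23 cells, all of them left of it.

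Single droplets were also compared by the summed UMIs of the 8 genes per 10000 UMIs. Smooth muscle cells had medians of 307, 360 and 376 in the young, adult and old library, with a lowest cell of 69.3 and a highest of 670. Pericytes had medians of 28.2, 35.3 and 36.1, and 21, 26 and 17 of them lay above the lowest smooth muscle cell. Only 1 pericyte, in the adult library, lay above the lower quartile of smooth muscle cells at 271. The mixed endothelial-pericyte droplets had medians of 11.9, 12.2 and 13.7, and none of the 620 reached the lowest smooth muscle cell. Mixed endothelial-smooth muscle droplets were spread widely, with the highest at 168, 265 and 145 in order of age. The median endothelial cell had 0.

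**Figure D3:**
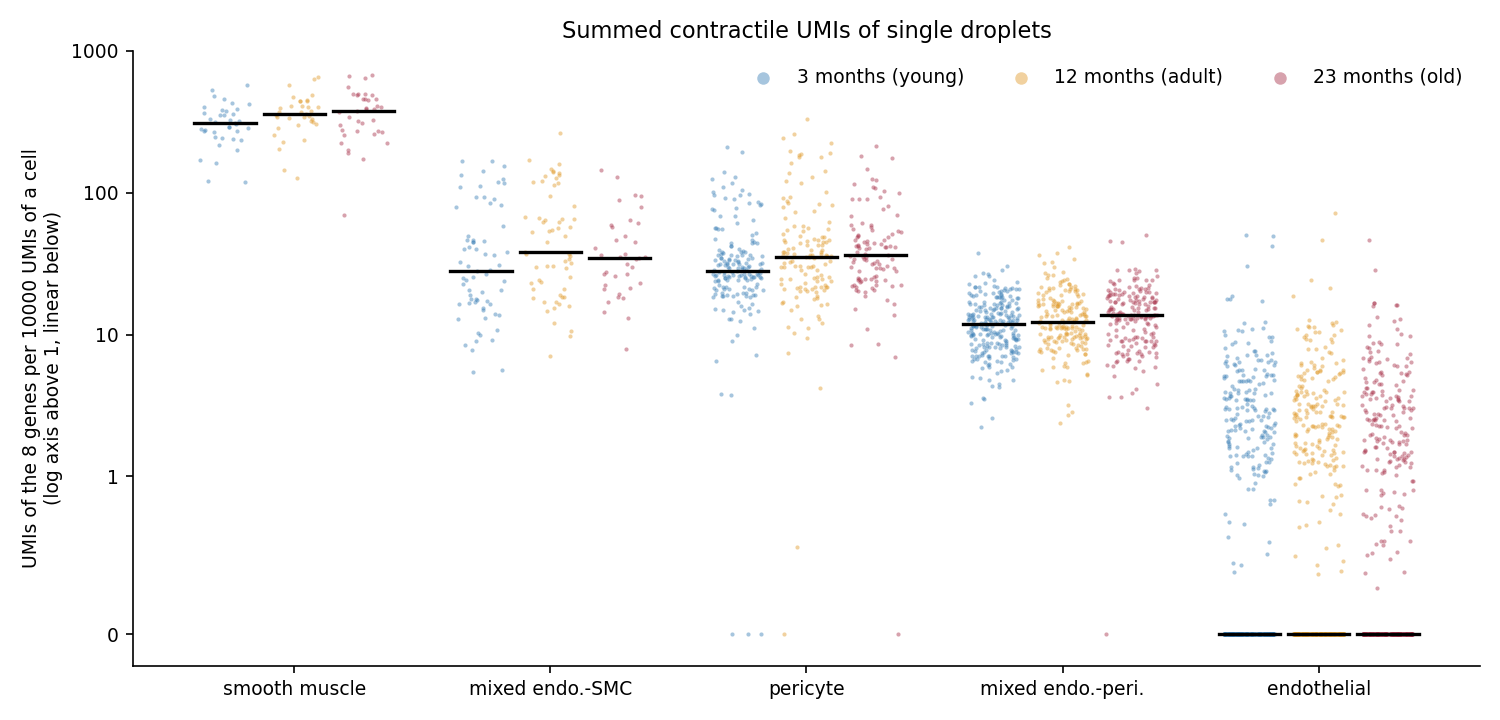
UMIs of the 8 genes per 10000 UMIs of each droplet (log axis above 1, linear below) by class, with 1 point per droplet coloured by age and black bars at the medians. The smooth muscle medians of 307 to 376 lie about an order above the pericyte medians of 28.2 to 36.1.

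Endothelial cells carried little of these genes, and how little depended on the cluster. In the endothelial cluster led by Gkn3, Stmn2, Sema3g and Bmx, Acta2 was at 59.5, 42.3 and 52.0 CPM, against 1.78, 4.18 and 3.87 CPM in the larger endothelial cluster led by Cxcl12, Itm2a and Ramp2. Few cells carried it, since 14.6%, 8.33% and 12.7% of the cells of the first cluster had an Acta2 UMI and 3 cells held 63.0%, 81.8% and 82.9% of it. Mylk differed in the same direction, at 99.2, 137 and 96.5 CPM against 39.6, 46.4 and 37.2 CPM, while Des, with only 7, 5 and 9 UMIs in the first, was at 15.4, 9.62 and 11.4 CPM against 29.2, 26.8 and 24.9 CPM. Gkn3 and Stmn2 were also among the 10 leading genes of the mixed endothelial-smooth muscle droplets. Summed smooth muscle markers were at 978, 1321 and 1286 CPM in the first endothelial cluster and 566, 714 and 690 CPM in the second. Crip1 made up most of that sum, at 556, 715 and 744 CPM over both clusters, while Pln, Nrip2, Map3k7cl and Olfr558 were at 0 to 1.84 CPM. Of the other markers Sncg was at 24.8, 49.3 and 49.0 CPM, Casq2 at 21.2, 22.1 and 15.1 CPM, Rgs4 at 9.51, 9.44 and 5.50 CPM and Mustn1 at 7.36, 7.38 and 3.85 CPM.

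The age question asked of these libraries was taken up class by class. In smooth muscle cells, 5 genes, Acta2, Tagln, Myl9, Des and Tpm2, were higher in both the adult and the old library than in the young one beyond counting error. The old-to-young ratio of CPM was 1.29 (1.23 to 1.35) for Acta2, 1.43 (1.36 to 1.51) for Tagln, 1.16 (1.08 to 1.24) for Myl9 and 1.46 (1.35 to 1.58) for Tpm2. Des had the larger ratio of 1.82 (1.39 to 2.40), with 81 UMIs in the young and 172 in the old smooth muscle cells. Over 10 alternative ways of processing, the ratio ran from 1.18 to 1.29 for Acta2, 1.30 to 1.43 for Tagln and 1.10 to 1.17 for Myl9. For Tpm2 it ran from 1.19 to 1.46 and for Des from 1.73 to 2.31, so some values lay outside the counting intervals. Myh11 was lower, at 0.89 (0.82 to 0.96), and Mylk did not differ beyond counting error, at 0.96 (0.86 to 1.07).

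Most of the difference was present in the adult library. The adult-to-young ratio was 1.21 (1.16 to 1.28) for Acta2, 1.39 (1.32 to 1.47) for Tagln, 2.05 (1.56 to 2.71) for Des, 1.33 (1.23 to 1.45) for Tpm2 and 0.85 (0.78 to 0.93) for Myh11. From adult to old the ratios of these 5 genes lay between 0.89 and 1.09. Cnn1 was the exception, at 1.18 (0.37 to 3.82) from young to adult and 2.59 (1.13 to 6.65) from adult to old, on few UMIs held by few cells. Its old-to-young ratio of 3.06 (1.29 to 8.38) was 1.54 after thinning to 2000 UMIs.

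With 1 library per age, a gene was counted as past the threshold when its CPM ratio was 1.5 or more in either direction, with at least 30 UMIs over the 2 libraries. Of the 8 genes, 2 were past it upward from young to old in smooth muscle cells, Cnn1 and Des, and none downward. Of all 3255 genes measured there, 12% were past it upward and 7.68% downward. From young to adult, 1 of the 7 measured genes, Des, was past it upward and none downward, against 10.7% and 6.83% of 2942 genes. The median log2 ratio from young to old was 0.44 over the 8 genes and 0.08 over all genes measured.

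The summed 8 genes were at 31327 CPM in the young, 37835 CPM in the adult and 39371 CPM in the old smooth muscle class, an old-to-young ratio of 1.26 (1.22 to 1.29). Other values differed between the ages in this class. The endothelial marker list was at 32.5, 57.0 and 100.3 CPM in order of age, and the Müller glia list at 68.3, 107 and 128 CPM. Rgs5, a pericyte marker that some smooth muscle cells carry as well, was at 6983, 6136 and 2707 CPM, and the 10 pericyte markers together at 9607, 9256 and 4781 CPM. Of those markers Kcnj8, Abcc9 and Atp13a5 were at 2.78 to 30.2 CPM, while Higd1b was at 744, 1020 and 696 CPM and Pdgfrb at 426, 429 and 351 CPM. Vtn was highest in the adult library, at 104, 359 and 111 CPM, and Cox4i2 was at 488, 399 and 287 CPM, Ndufa4l2 at 774, 835 and 554 CPM and Art3 at 40.3 to 55.3 CPM. The 9 smooth muscle markers together were at 11307, 13063.5 and 11568 CPM. The median mitochondrial percentage was 9.17, 8.70 and 7.80. Their part in the age ratios was not tested.

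In pericytes the largest age ratios among the 8 genes, from young to either older library, were those of Tagln, Acta2 and Myh11, the last of which had a UMI in 31.8%, 43.2% and 40.4% of the cells. From young to adult Acta2 was 2.44-fold (2.13 to 2.80), Tagln 3.62-fold (3.02 to 4.37) and Myh11 2.40-fold (1.95 to 2.96) higher, and from young to old 1.80-fold (1.55 to 2.09), 1.76-fold (1.42 to 2.18) and 1.75-fold (1.40 to 2.20). Over 11 alternative ways of processing, the old-to-young ratio ran from 0.90 to 6.05 for Acta2, 0.91 to 9.05 for Tagln and 1.43 to 2.60 for Myh11. Among the pericytes with fewer than 5 smooth muscle markers the Acta2 ratio was 0.60 (0.36 to 0.96) from young to adult and 0.90 (0.57 to 1.39) from young to old, and Tagln was at 1.34 and 0.91. Myh11 in the same cells was still higher from young to adult, at 2.06 (1.48 to 2.88), and was at 1.43 (0.98 to 2.08) from young to old. The summed smooth muscle markers of the whole pericyte class moved in the same order, at 2817, 4304 and 3583 CPM. The fibroblast and rod lists were also highest in the adult pericytes, at 114, 284 and 111 CPM for the fibroblast list (Dcn at 27.2, 160 and 37.8 CPM, Col1a1 at 1.43, 21.3 and 0 CPM, Col1a2 at 85.8, 101 and 73.7 CPM, Lum and Pdgfra at 0 to 1.78 CPM) and 157, 354 and 133 CPM for the rod list. The endothelial list was at 805, 764 and 954 CPM and the Müller glia list at 159, 235 and 291 CPM, with the old pericytes highest in both. The part of these markers in the Acta2 ratios was not tested. The 3 cells highest in Acta2 held 34.5%, 26.7% and 33.8% of it.

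Myl9 in pericytes was higher in each older library, going from 1668 CPM (1574 to 1767) to 1962 CPM (1848 to 2081) and 2293 CPM (2163 to 2430), an old-to-young ratio of 1.37 (1.27 to 1.49). Leaving out the cells with 5 or more smooth muscle markers gave 1565 CPM (1466 to 1669), 1647 CPM (1523 to 1779) and 2143 CPM (1992 to 2304), so the old library was still above the other 2. Des, at 1.17 (0.95 to 1.44), Mylk, at 1.02 (0.87 to 1.21), and Tpm2, at 1.15 (0.97 to 1.38), did not differ beyond counting error between old and young pericytes. Of the 7 genes measured in pericytes, 3 were past the 1.5-fold threshold upward from young to old and none downward, against 10.6% and 6.75% of 5676 genes. Without the pericytes holding 5 or more smooth muscle markers none of the 7 was past it in either direction, against 10.7% upward and 7.55% downward of 4808 genes. From young to adult the count was 4 upward and none downward, against 8.50% and 6.16% of 5797 genes. Without those cells it was 1 upward, Myh11, and 1 downward, Acta2, against 9.09% and 7.42% of 4974 genes, while Tagln was at 1.34 and Tpm2 at 1.07.

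**Figure D4:**
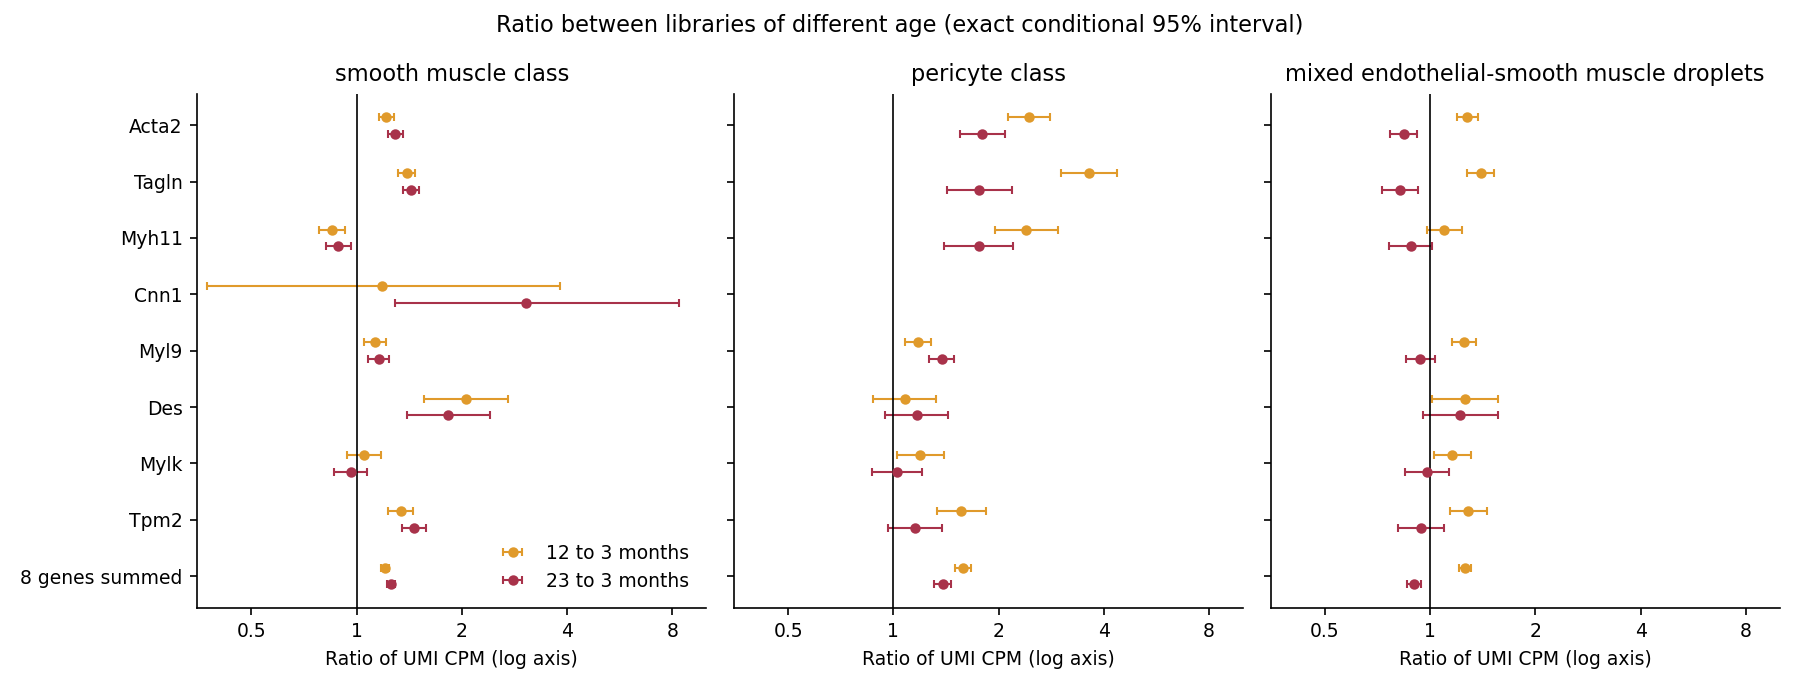
Ratio of CPM between libraries (log axis) for each of the 8 genes and their sum in smooth muscle cells, pericytes and mixed endothelial-smooth muscle droplets, with exact conditional 95% intervals. In smooth muscle cells Acta2 lies at 1.21 and 1.29 and Myh11 at 0.85 and 0.89, while in pericytes Tagln reaches 3.62 from young to adult.

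In mixed endothelial-smooth muscle droplets the sum of the 8 genes was 1.26-fold (1.21 to 1.31) the young level in the adult and 0.90-fold (0.86 to 0.94) in the old library. Both directions turned under an alternative, the first to 0.90 with classes taken from each cell's own markers and the second to 1.03 after thinning to 2000 UMIs. None of the 7 genes measured there was past the threshold from young to old in either direction, against 15.2% of all genes. In mixed endothelial-pericyte droplets the sum was at 1183, 1275 and 1394 CPM, an old-to-young ratio of 1.18 (1.13 to 1.23), and none of 7 genes was past the threshold, against 9.80% of all genes. Endothelial cells had an old-to-young ratio of 0.99 (0.88 to 1.10) for the sum and none of 7 genes past the threshold, against 10.5% of all genes.

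The wider lists were read for the same division between mural classes. In them Lmod1, Cald1, Vcl, Ppp1r12b, Vim, Myl6 and Myocd are named as examples chosen after their values were seen. Of 14 measured genes for thin filaments and their adhesion to the cell edge, 11 were higher in smooth muscle cells than in pericytes in all 3 libraries and none lower in all 3, with a median ratio of 3.96. Of all 8278 genes with at least 30 UMIs over both classes, 17.2% were higher in smooth muscle cells and 36.8% higher in pericytes in every library, and the median ratio was 0.86. Over the 3 libraries Csrp1, a filament-associated LIM protein, was at 789 CPM in smooth muscle cells and 21.0 CPM in pericytes, Lmod1, which nucleates actin filaments, at 527 and 49.3 CPM, and Nexn, a filament-binding protein, at 352 and 27.2 CPM. Cald1, the actin-binding regulator caldesmon, was close to shared, at 3082 and 2436 CPM, and vinculin (Vcl) was at 526 and 513 CPM.

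The genes that set light chain phosphorylation and its relaxation by cyclic GMP were closer between the classes. Of 14, 11 were higher in smooth muscle cells in all 3 libraries and 2 lower, with a median ratio of 1.52. The myosin phosphatase subunit Ppp1r12b was at 466 CPM in smooth muscle cells and 68.0 CPM in pericytes. Pericytes were higher for Gucy1b1, a subunit of the nitric oxide receptor, at 813 against 424 CPM, and for Rhoa, a small GTPase, at 484 against 315 CPM.

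Of 13 nonmuscle counterparts, 7 were higher in smooth muscle cells in all 3 libraries and 6 in pericytes. Pericytes had more nonmuscle myosin heavy chain Myh9, at 561 against 109 CPM, and more of the light chain Myl12a, at 526 against 232 CPM. Smooth muscle cells had more vimentin (Vim), at 3001 against 423 CPM, and more of the myosin light chain Myl6, at 6731 against 1707 CPM. Of 10 regulators, 4 were higher in each class. Myocd, the coactivator myocardin, was at 125 CPM in smooth muscle cells and 27.2 CPM in pericytes, and Notch3, a receptor of mural cells, at 569 and 813 CPM.

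Between ages, the lists had lower median ratios in smooth muscle cells than the 8 genes. From young to old, 2 of 13 measured thin filament genes were past the threshold upward and none downward, with a median log2 ratio of 0.33. Csrp1 was at 530, 782 and 1016 CPM, a ratio of 1.92 (1.59 to 2.32), and Nexn at 257, 399 and 395 CPM, a ratio of 1.54 (1.16 to 2.05). None of 14 light chain and relaxation genes was past it, with a median of -0.10.

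Of 12 measured nonmuscle counterparts, 3 were past the threshold upward and none downward, with a median log2 ratio of 0.27. They were Actg1, a cytoplasmic actin, at 601, 788 and 1092 CPM and a ratio of 1.82 (1.52 to 2.17), Myl12a at 1.66 (1.16 to 2.40) and Cnn3 at 231, 272 and 370 CPM. Of 8 measured regulators 1 was past it downward, Tbx2, at 263, 201 and 175 CPM and a ratio of 0.67 (0.47 to 0.94), with a median of -0.17. Notch3 in the same cells was at 660, 590 and 473 CPM, a ratio of 0.72 (0.58 to 0.88). The shares of 12% upward and 7.68% downward over all genes stand beside these counts too.

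In pericytes the counts of the same lists from young to old were read against the 10.6% of all genes that were past the threshold upward and the 6.75% downward. They were 1 of 10 thin filament genes upward, 2 of 14 light chain and relaxation genes upward and 1 downward, 1 of 12 nonmuscle counterparts upward and 2 of 7 regulators upward. The medians of the log2 ratio were 0.29, 0.11, 0.27 and 0.16, against 0.07 over all genes measured in pericytes.

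Outside the lists, the 5 genes whose levels ran most like the summed 8 genes were Wtip, Hspb2, Rgs7bp, Pde3a and Pbxip1. Likeness was the Pearson correlation of log2(CPM + 10) over 12 sums, made of smooth muscle cells, pericytes, mixed droplets and endothelial cells in 3 libraries, and it was 0.998 for Wtip and 0.991 for Pbxip1 among 10624 genes compared. The 12 points share libraries and cell clusters, so these values describe the order of classes. Wtip was at 1518, 1654 and 1805 CPM in smooth muscle cells and 329, 471 and 406 CPM in pericytes.

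Most UMIs of the 8 genes in a library came from the vessel wall, though not from the same class for each gene. The smooth muscle class held 61.8%, 58.7% and 78.0% of all Acta2 UMIs in order of age, the mixed endothelial-smooth muscle droplets 28.9%, 28.4% and 12.3%, and pericytes 6.45%, 10.2% and 6.98%. For Des the mixed endothelial-pericyte droplets held the most, at 41.3%, 36.6% and 38.0%, against 8.15%, 15.0% and 18.9% in smooth muscle cells.

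Mylk had a clear level outside vessels. In cones, the photoreceptors of daylight vision, it was at 549 CPM (486 to 619), 656 CPM (596 to 721) and 543 CPM (480 to 612), beside 488 to 583 CPM in pericytes. From 94.1% to 97.1% of cones had a Mylk UMI, and 58.8% to 68.1% after thinning to 2000 UMIs, against 6.23% to 10.2% and 4.93% to 7.62% of rods. Each of the other 7 genes had at most 3 UMIs in the cones of a library, and cones held 10.2%, 15.0% and 11.6% of all Mylk UMIs of their libraries.

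Cells of the retinal pigment epithelium carried Myl9 without the smooth muscle pattern. There were 1, 7 and 53 of them, so only the old library is described, where Myl9 was at 1110 CPM (984 to 1247) and gave a UMI in 73.6% (59.7 to 84.7) of cells, against 4.22% of rods in that library. Tpm2 was at 188 CPM (139 to 250), Acta2 at 110 CPM (73.0 to 159) and Mylk at 106 CPM (69.8 to 154), while Tagln gave 1 UMI and Myh11, Cnn1 and Des none, with an exact upper limit of 14.5 CPM.

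**Figure D5:**
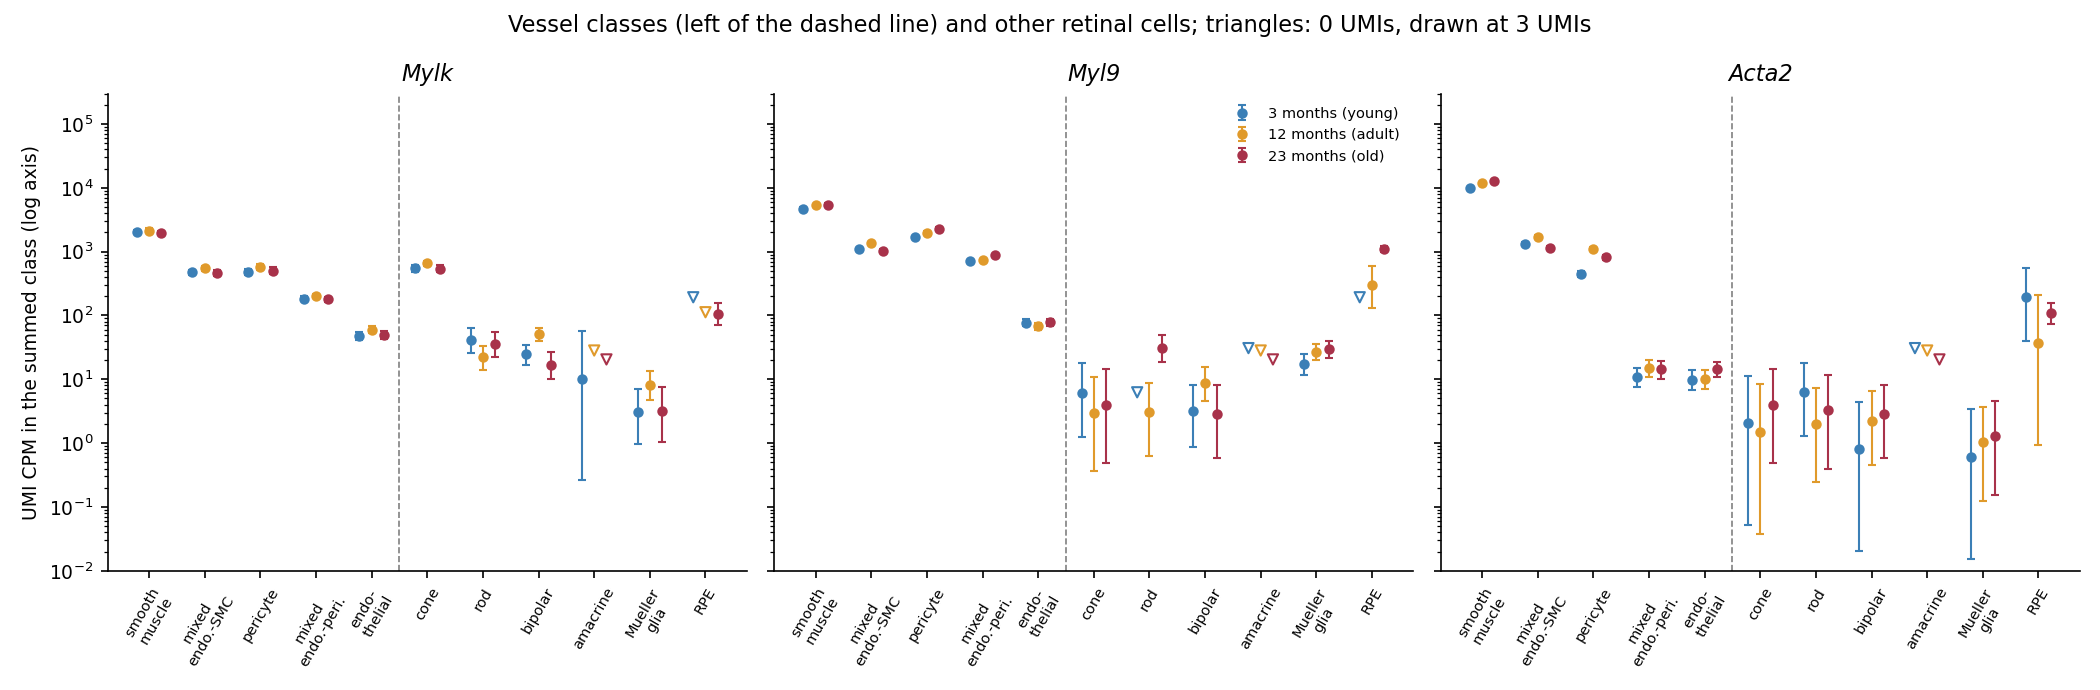
Levels of Mylk, Myl9 and Acta2 (UMI CPM, log axis, 95% Poisson intervals, 1 point per library coloured by age) in 5 vessel classes and 6 other retinal cell types. Open triangles mark 0 UMIs, drawn at the level of 3 UMIs. Mylk in cones, at 543 to 656 CPM, lies level with pericytes, and Myl9 in the pigment epithelium reaches 1110 CPM in the old library, where that class has 53 of its 61 cells.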

How the data were processed

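The files hold UMI counts per gene and barcode as deposited, which the authors made with Cell Ranger 6.1.2 on mm10. The annotation release and the strand setting are not given in the sources used here. Barcodes with 500 to 6000 genes and 1 to 20% mitochondrial UMIs were kept, and cells marked by Scrublet (scanpy 1.11.5) were left out. The doublet call was weak, at 0.467%, 0.861% and 0.701% of cells. Libraries were integrated and clustered in Seurat 5.3.0 (R 4.3.3; 2000 features, 30 components, resolution 0.5), with the 8 genes and the wider lists kept out of the features. Counts were summed per class and library and given as CPM, with exact Poisson, conditional ratio and Clopper-Pearson 95% intervals (scipy 1.17.1). Sums and ratios were tested on simulated data.

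The 8 genes, the lists and the cell type markers were chosen with earlier results of these data known. All 8 genes were named, with at most 3 genes per list and direction by the old-to-young ratio in smooth muscle cells and the 5 genes most like the sum. Alternatives changed the limits on cells, doublets, features, resolution, naming, depth, free RNA and scaling. Total depth was 16577026 to 19977238 UMIs per library.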

Additional observations from a re-analysis of the deposited data

Results flagged for a closer look

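In the same pair of libraries, the old-to-young ratio of some genes lay above 1 in one class and below 1 in another, with neither counting interval reaching 1. For Acta2 the ratio was 1.29 in smooth muscle cells and 1.80 in pericytes, but 0.84 in mixed endothelial-smooth muscle droplets. For Tagln it was 1.43, 1.76 and 0.82 in the same order. The sum of the 8 genes gave 1.26 in smooth muscle cells, 1.38 in pericytes, 1.18 in mixed endothelial-pericyte droplets and 0.90 in mixed endothelial-smooth muscle droplets. These contrasts did not hold under every alternative. The 0.90 became 1.03 after thinning to 2000 UMIs. Without the pericytes holding 5 or more smooth muscle markers Acta2 was at 0.90 and Tagln at 0.91 in pericytes. Other alternatives raised the pericyte ratios and so widened the contrast with the mixed droplets. The 1.38 in pericytes became 2.10 with classes taken from each cell's own markers. Over 11 settings Acta2 in pericytes ranged from 0.90 to 6.05 and Tagln from 0.91 to 9.05. Myh11 had another order, at 0.89 in smooth muscle cells, 1.75 in pericytes and 1.48 in mixed endothelial-pericyte droplets. With 1 library per age, no test of the class difference was made, so it was not tested.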

How the results depend on the processing

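No paired analysis was possible because each age had a single library, and for the same reason no library could be left out. Ratios below are of the sum of the 8 genes unless a gene is named. In smooth muscle cells the old-to-young ratio of 1.26 was 1.21 with 1000 to 6000 genes and at most 10% mitochondrial UMIs, 1.19 with classes taken from each cell's own markers, 1.20 after thinning to 2000 UMIs and 1.19 with scaling by the median ratio. The adult-to-young ratio of 1.21 was 1.11 with own markers, 1.17 after thinning, 1.17 without cells holding 2 or more endothelial markers and 1.15 with median scaling. In pericytes the old-to-young ratio of 1.38 was 1.49 with the stricter limits, 2.10 with own markers and 1.52 without cells holding 2 or more endothelial markers. Leaving out those cells took the pericyte class from 170, 132 and 104 cells to 97, 74 and 50. The adult-to-young ratio of 1.58 was 1.76 with the stricter limits, 1.45 at resolution 1.0 and 1.27 with own markers, where Mylk was at 0.92. The adult pericyte level of 5905 CPM was 6192 CPM with the contractile genes among the clustering features.

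Leaving out pericytes with 5 or more smooth muscle markers, an alternative chosen after seeing the data, gave 1.20 from young to old and 1.07 from young to adult. In the same order Acta2 was then at 0.90 and 0.60, Tagln at 0.91 and 1.34 and Myh11 at 1.43 and 2.06. The ratio of smooth muscle cells to pericytes was then 10.7, 12.1 and 11.3 in the young, adult and old library, against 8.39, 6.41 and 7.62.

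Several adult-to-young ratios of the mixed and endothelial classes crossed 1 with own markers. In mixed endothelial-smooth muscle droplets they were 0.88 for Acta2, 0.96 for Tagln, 0.96 for Myl9, 0.87 for Mylk, 0.94 for Tpm2 and 0.90 for the sum. In mixed endothelial-pericyte droplets Tagln was at 0.65 and the sum at 0.98, and in endothelial cells Myh11 was at 0.95. Thinning put the mixed endothelial-smooth muscle sum at 1.03 from young to old and Mylk at 0.97 from young to adult. The cause of these shifts was not tested.

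Asking for 100 UMIs over both libraries took the share of all genes past 1.5-fold in either direction from 19.7% to 9.14% (old to young) and 17.6% to 6.07% (adult to young) in smooth muscle cells, and from 17.4% to 6.99% and 14.7% to 4.79% in pericytes. Of the other values, 626 moved by less than their counting interval and 95 by more. Cnn1 rested on 7 to 25 UMIs per library.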
